A study of Mus musculus with 16 samples.

Results

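The effect of TAC in vehicle-treated mouse hearts was described gene by gene over the 12823 genes, of 20540 in the authors' deposited table of the pair, whose mean over both groups was at least 50 normalized counts. TAC is the field's abbreviation for transverse aortic constriction, a surgical narrowing of the aorta that makes the left ventricle pump against a higher pressure, and SHAM stands for the mock operation. The groups were Vehicle TAC (4 libraries) and Vehicle SHAM (3 libraries). NR TAC (5 libraries) and NR SHAM (4 libraries), from hearts given NR in place of vehicle, served as a second pair that shares no library with the vehicle pair. All 16 libraries were made from total heart RNA, and the labels give no strain, age, sex, chamber, dose or time after surgery. Nothing states that the libraries came from separate mice, so the spread behind the p-values is that between libraries and may be technical.

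A pressure-loaded ventricle thickens as its muscle cells enlarge without dividing. In mice this growth is known to be accompanied by the return of genes of the fetal heart, among them those for natriuretic peptides, skeletal alpha-actin and beta-myosin heavy chain. Fibroblasts lay down collagen and other matrix, and the muscle's large capacity to burn fatty acids often declines as the heart fails. The comparison asked which of these gene programmes differed after TAC without NR.

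Each gene has 1 mean per group, in counts divided by size factors that were set within the pair, and 1 DESeq p-value. The tables hold no value per library, so neither an SD nor a library's depth is known here. The effect of a gene is the log2 ratio of the Vehicle TAC mean to the Vehicle SHAM mean, each plus 1, which understates changes of low genes. A gene rose or fell here only if its DESeq adjusted p over all 20540 genes was below 0.05. Effects of other genes are given as values. Of all members 48.2% were higher and 51.8% lower in TAC. The median effect was −0.01, 25% of genes lay below −0.13 and 25% above 0.16. The tails were unequal, with 5% of genes below −0.39 and 5% above 0.75, a lowest effect of −3.95 and a highest of 10.42. Gm26982, with group means of 43.0 in TAC and 57.1 in SHAM hearts, lay just inside the minimum, and Zfhx4, with 41.4 and 58.6 in TAC and SHAM hearts, just outside it.

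Both group means carried the defining transcripts of heart muscle. Cardiac troponin I, encoded by Tnni3, had 116036 normalized counts in TAC and 146081 in SHAM hearts, and the effects of Tnnt2, Actc1, Myl2, Mybpc3, Myh6, Pln and Ryr2 lay between −0.42 and 0.24. Group means of transcripts of other tissues lay apart as well, though none of the markers counted below passed the adjusted threshold. All 31 hepatocyte markers that reached the minimum mean, of 32 with values, were higher in TAC. Their summed means were 68336 in TAC and 2332 in SHAM hearts, or 0.162% and 0.00498% of all normalized counts. A marker that is low in SHAM hearts reaches the minimum only through its TAC mean, so the minimum itself favours this direction. With no minimum mean the median effect of the list was 8.13. Albumin (Alb) had 24938 normalized counts in TAC and 25.1 in SHAM hearts, yet the unadjusted DESeq p was 0.0733 in the authors' deposited table. In the NR pair 23 of these 31 markers were lower in TAC, and Alb had 10.1 in NR TAC and 111 in NR SHAM hearts. The summed means of the 31 markers were nevertheless higher in NR TAC, with 3215 against 2127 in NR SHAM hearts. Of the 15 adipocyte markers 11 were lower in vehicle TAC, among them Adipoq, which encodes adiponectin, with 74.7 in TAC and 390 in SHAM hearts. Summed adipocyte markers made up 0.0725% of all normalized counts in TAC and 0.0724% in SHAM hearts. All 8 red cell and platelet transcripts and 22 of 23 macrophage markers were higher in TAC. No adipocyte, red cell, platelet or macrophage marker had an unadjusted DESeq p below 0.05. Among hepatocyte markers 1 of 31 did, in the higher direction, beside 3.18% of all members. How much these tissues' RNA contributed to the effects of other genes was not tested. In whole-tissue RNA, fewer cells of a type and less RNA per cell cannot be told apart.

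Of the 12823 genes, 8 passed the adjusted threshold (0.0624%), of which 4 rose and 4 fell (0.0312% each). Over all 20540 genes 10 passed (0.0487%). At an unadjusted p below 0.05 there were 779 of the 12823 (6.08%), 408 higher (3.18%) and 371 lower (2.89%). Acta1, the gene of skeletal alpha-actin, had the largest effect among the 8 genes that passed the adjusted threshold, at 3.30. It had 116439 normalized counts in TAC and 11815 in SHAM hearts (adjusted p 0.0264 by DESeq in the authors' deposited table). Acta1 lies at chr8:123891769-123894751 on the minus strand of GRCm38. It has near-identical paralogs in Actc1 and Acta2, whose effects were both 0.12, so reads shared between actins leave its level uncertain. Tbx15, a T-box transcription factor known from skeletal muscle and skeleton development, rose to 109 normalized counts in TAC, against 17.6 in SHAM hearts (effect 2.57, adjusted p 0.00799 by DESeq in the authors' deposited table). Ccdc136, a coiled-coil protein gene, rose to 137 in TAC hearts, against 49.5 in SHAM hearts (effect 1.46). Tbx15 lies at chr3:99240381-99354259 and Ccdc136 at chr6:29396309-29426994, both on the plus strand. The noncoding gene Gm35533 also rose, with an effect of 1.27.

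Ano10, a member of the anoctamin family of membrane proteins, had the smallest p. It fell to 1390 normalized counts in TAC, against 2787 in SHAM hearts, a ratio of 0.499 (adjusted p 0.000176 by DESeq in the authors' deposited table), and lies at chr9:122175874-122294423 on the minus strand. The mitochondrially encoded ATP synthase subunit gene mt-Atp6 fell to 31105 in TAC, against 62788 in SHAM hearts (effect −1.01, adjusted p 0.00781 by DESeq in the authors' deposited table). Its interval on the mitochondrial genome, M:7927-8607, overlaps that of mt-Atp8, M:7766-7969, so reads of the overlap cannot be given to 1 of them. Gm4076, annotated as a processed pseudogene, and Gm44769 fell with effects of −1.03 and −1.66. A processed pseudogene can share reads with its parent gene, which makes the value of Gm4076 uncertain. Against NR SHAM hearts, NR TAC hearts had effects of 2.60 for Acta1, 1.40 for Tbx15, 1.06 for Ccdc136 and −0.83 for Ano10. Each of these 4 passed an adjusted p of 0.05 in the NR pair too, whereas mt-Atp6 had an NR effect of −0.32 and an unadjusted DESeq p of 0.178 in the authors' deposited table. Unadjusted DESeq p-values in the NR pair were 0.00163 for Gm35533 (effect 1.42), 0.00745 for Gm44769 (−0.74) and 0.130 for Gm4076 (−0.41). Both passing genes below the minimum mean, Fjx1 and the noncoding Gm45897, had vehicle effects of 2.09 and 2.95. Their NR effects were −0.42 and 0.81, with unadjusted DESeq p-values of 0.449 and 0.194.

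**Figure D1:**
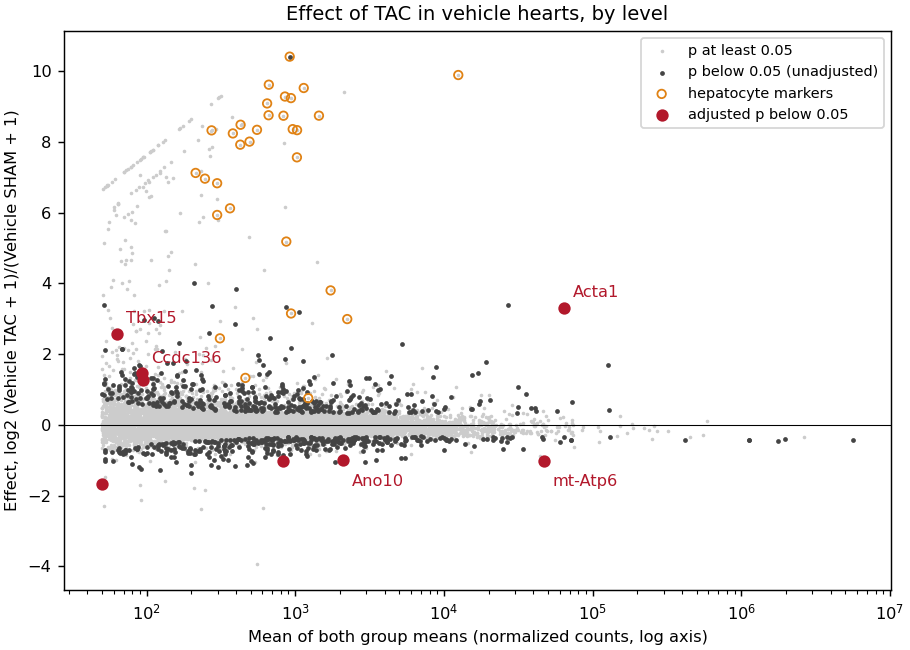
Effect of TAC in vehicle hearts against the mean of both group means, for 12823 genes. Each point is a gene; dark points have an unadjusted p below 0.05, red points an adjusted p below 0.05, and orange rings are hepatocyte markers. Acta1 stands at an effect of 3.30 and a high level, while most of the hepatocyte markers lie above 5 without passing the adjusted threshold.

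The next ranks held genes that missed the adjusted threshold. Klhl40, a kelch protein of muscle that stabilizes thin filament proteins, had 885 normalized counts in TAC and 513 in SHAM hearts (unadjusted p 5.64e-05, adjusted p 0.105 by DESeq in the authors' deposited table). Nr4a3, an orphan nuclear receptor induced early by stimuli, had 929 in TAC and 286 in SHAM hearts. The water channel gene Aqp8 had 451 in TAC and 74.1 in SHAM hearts. Rrp12, which takes part in ribosome assembly, had an effect of 1.16, and the lipoprotein receptor family gene Lrp8 2.95. Lman1l (3.03), Dct (1.75) and AI839979 (1.66) were also among the 12 smallest p-values of higher genes. On the lower side, the angiotensin II receptor gene Agtr1a had 2333 in TAC and 3534 in SHAM hearts, an effect of −0.60. Vwc2 (−1.25), Asb4 (−0.82), Tnfaip8 (−0.64), Fign (−1.12), Slc16a7 (−0.73), BB218582 (−1.12), Bhlhb9 (−0.66), Fbxw7 (−0.58) and Cadm4 (−0.74) were the others. Slc16a7 encodes a monocarboxylate transporter and Fbxw7 the substrate-binding part of a ubiquitin ligase.

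Hypertrophy and stress marker genes were higher throughout. All 20 had a positive effect, with a median of 1.34, beside 48.2% positive and a median of −0.01 over all members. Acta1 alone among them passed the adjusted threshold in the authors' deposited table, and 14 had an unadjusted DESeq p below 0.05 in the higher direction, beside 3.18% of all members. This list was chosen with earlier results of these data known, so its counts describe the genes and test nothing. Promoter windows of 3 of these genes are shown because they carry matches to short motifs known from muscle gene promoters. Acta1 is the called gene, Ankrd1 had the second smallest p of the list, and Nppb encodes B-type natriuretic peptide. The windows are from RefSeq (GRCm38.p6), run 5′ to 3′ from 250 bases before to 50 bases after the annotated start, and lie at chr8:123894726-123895025 on the minus strand for Acta1, chr19:36119795-36120094 on the minus strand for Ankrd1 and chr4:147985650-147985949 on the plus strand for Nppb. Capitals mark the motif matches.
Acta1: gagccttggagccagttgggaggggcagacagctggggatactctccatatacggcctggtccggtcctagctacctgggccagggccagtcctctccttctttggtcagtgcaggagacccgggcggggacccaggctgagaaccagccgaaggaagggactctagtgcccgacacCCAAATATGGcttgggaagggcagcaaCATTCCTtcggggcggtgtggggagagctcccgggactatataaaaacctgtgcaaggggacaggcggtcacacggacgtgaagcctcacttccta
Ankrd1: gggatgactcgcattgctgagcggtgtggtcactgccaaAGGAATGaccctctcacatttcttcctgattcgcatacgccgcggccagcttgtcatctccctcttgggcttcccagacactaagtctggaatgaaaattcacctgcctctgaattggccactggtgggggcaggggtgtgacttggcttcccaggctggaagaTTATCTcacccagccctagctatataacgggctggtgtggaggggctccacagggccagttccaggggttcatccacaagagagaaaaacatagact
Nppb: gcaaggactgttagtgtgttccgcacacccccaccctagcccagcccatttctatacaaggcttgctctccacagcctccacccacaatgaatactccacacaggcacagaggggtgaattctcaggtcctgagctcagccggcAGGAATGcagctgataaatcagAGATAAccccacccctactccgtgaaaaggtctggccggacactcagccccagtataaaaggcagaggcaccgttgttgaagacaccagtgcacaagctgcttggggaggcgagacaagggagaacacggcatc

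The motifs were searched on both strands in the 1 window of each of 27025 genes, of which 9604 were members and 18 were among the 20 stress genes. The MCAT element, searched as CATTCCT and known as a site of TEAD factors, matched in 4 of the 18 stress genes (22.2%), beside 5.28% of all windows and 4.01% of members. These were Acta1 at −46 to −40 from the start, Ankrd1 at −211 to −205, Nppb at −106 to −100 and Mybpc2 at −63 to −57. A CArG box, the core of the serum response element, matched in Acta1 at −73 to −64 and in Fhl1. These were 11.1% of the stress genes, beside 1.57% of all windows and 1.35% of members. A GATA site, searched as AGATAA, matched in Ankrd1 at −47 to −42 and in Nppb at −84 to −79. Its share was again 11.1%, beside 11.4% of all windows and 6.24% of members. A MEF2 site matched in Synpo2l and Xirp2 (11.1%), beside 3.26% of all windows and 1.94% of members. In Ankrd1 both matches, and in Nppb the MCAT match, are on the strand opposite to that printed. A match is a stretch of letters and shows no binding. Because the stress genes were chosen with earlier results of these data known, their motif shares are a description only.

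Among secreted stress signals, Nppa, which encodes atrial natriuretic peptide, had 49249 normalized counts in TAC and 4661 in SHAM hearts, an effect of 3.40 (unadjusted p 0.0253, adjusted p 0.939 by DESeq in the authors' deposited table). Nppb had 29936 in TAC and 8688 in SHAM hearts (effect 1.78, unadjusted DESeq p 0.00411 in the authors' deposited table). Both peptides promote salt and water loss and lower blood pressure. Gdf15, a cytokine of stressed tissue, had 748 in TAC and 51.1 in SHAM hearts, an effect of 3.84 and the highest of the list. Of both peptide genes Nppa had the larger effect and Nppb the smaller unadjusted p. Nppa is also an atrial gene. Of the 17 atrial markers 11 were higher and 6 lower in vehicle TAC, with a median effect of 0.12. Myl7 and Myl4 had effects of 0.35 and 0.39, Kcnj3 had −0.66, and Bmp10 had −3.95. Bmp10 had 66.0 normalized counts in TAC and 1033 in SHAM hearts, with an unadjusted DESeq p of 0.189 in the authors' deposited table. The part of atrial tissue in the effect of Nppa was not tested.

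Inside the muscle cell, Ankrd1, a titin-associated ankyrin repeat protein that responds to stretch, had 193332 normalized counts in TAC and 59280 in SHAM hearts, an effect of 1.71. Its unadjusted DESeq p was 0.000638 and its adjusted p 0.292 in the authors' deposited table. Synpo2l, an actin-associated Z-disc protein, had 24730 in TAC and 8913 in SHAM hearts (effect 1.47). Rcan1, an inhibitor of the phosphatase calcineurin and itself a calcineurin target gene, had 13274 in TAC and 4294 in SHAM hearts (effect 1.63). Tnfrsf12a, the receptor of the cytokine TWEAK, had 4447 in TAC and 1779 in SHAM hearts. Ctgf, a matricellular growth regulator, had 12194 in TAC and 4782 in SHAM hearts. The lowest effects of the list belonged to Il6st at 0.05, Csrp3 at 0.31, Hspb7 at 0.43 and Xirp1 at 0.49, so stress markers differed widely in size.

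**Figure D2:**
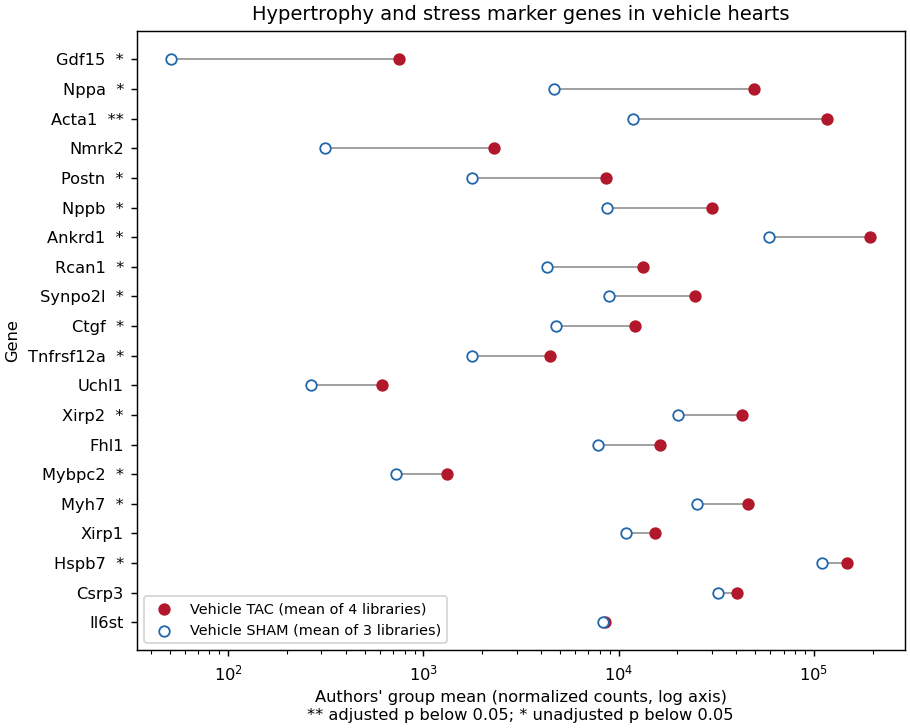
Group means of the 20 hypertrophy and stress marker genes in vehicle hearts on a log axis, filled red for TAC (4 libraries) and open blue for SHAM (3 libraries). Every gene lies to the right in TAC, with Gdf15, Nppa and Acta1 showing the widest gaps and Il6st almost none. The values are single group means without error bars.

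The sarcomere itself differed little as a set. Of 16 thick filament genes 10 were higher and 6 lower in TAC, with a median effect of 0.06. Myh7, the slow beta-myosin heavy chain, had 45918 normalized counts in TAC and 25277 in SHAM hearts (effect 0.86, unadjusted DESeq p 0.0303 in the authors' deposited table). Myh6, the fast alpha-myosin heavy chain of the adult mouse ventricle, had 500529 in TAC and 611222 in SHAM hearts (effect −0.29, unadjusted p 0.232 in the authors' deposited table). Mylk4, a myosin light chain kinase family member, had 3737 in TAC and 7159 in SHAM hearts, an effect of −0.94 and the lowest of the list. Among 16 thin filament genes the numbers were 8 higher and 8 lower; Acta1 at 3.30 stood far from the remaining 15, which lay between −0.33 (Tnni3) and 0.40 (Neb). The isoform genes of the skeletal type thus differed in size, with Acta1 at 3.30, Mybpc2 at 0.86 and Tnnt1 at −0.23.

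Z-disc and costamere genes, whose products anchor the filaments and link them to the membrane, were mostly higher: 23 of 27, with a median of 0.25. No gene of this list passed the adjusted threshold by DESeq in the authors' deposited table. An unadjusted DESeq p below 0.05 was found for 8 of the 27, all higher, beside 3.18% of all members. Beside Ankrd1, Synpo2l and Xirp2 (1.08), these were Myot, Flnc, Des, Pdlim5 and Lmcd1. Myot, the gene of the Z-disc protein myotilin, had 5927 normalized counts in TAC and 2614 in SHAM hearts (effect 1.18). Filamin C (Flnc) had an effect of 0.71, the intermediate filament gene Des 0.65, and Pdlim5 and Lmcd1 0.40 each. Fhl1, a LIM protein of the titin spring region, had 16287 in TAC and 7814 in SHAM hearts. Ankrd1, Synpo2l, Xirp2 and Fhl1 also stand among the stress markers, so the lists are not independent.

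Genes of excitation and calcium cycling were mostly lower. Of 27 calcium handling genes 19 were lower, with a median of −0.18, and 0 passed the adjusted threshold by DESeq in the authors' deposited table. An unadjusted DESeq p below 0.05 was found for 2, both lower, beside 2.89% of all members. Atp2a2, the calcium pump SERCA2 that refills the sarcoplasmic reticulum, had 357555 normalized counts in TAC and 481973 in SHAM hearts (effect −0.43, unadjusted DESeq p 0.0456 in the authors' deposited table). Hrc, a calcium-binding protein inside that store, had 22110 in TAC and 30682 in SHAM hearts (effect −0.47). Phospholamban (Pln), the inhibitor of the pump, had an effect of −0.29 and the release channel gene Ryr2 −0.42, neither with an unadjusted p below 0.05.

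Of 20 potassium channel genes 17 were lower, with a median of −0.34, and 0 passed by DESeq in the authors' deposited table. All 4 genes with an unadjusted DESeq p below 0.05 were lower, or 4 of 20 beside 2.89% of all members. Kcnj2, which carries the inward rectifier current that holds the resting potential, had 1671 normalized counts in TAC and 2653 in SHAM hearts, an effect of −0.67 (unadjusted DESeq p 0.000882, adjusted p 0.302 in the authors' deposited table). Abcc9, the sulfonylurea receptor of ATP-sensitive channels, had 12748 in TAC and 19300 in SHAM hearts. Kcnv2, a modifier subunit, had 333 in TAC and 623 in SHAM hearts, and Kcnn2, a calcium-activated channel, 240 in TAC and 335 in SHAM hearts. Kcnd2 and Kcnd3, which carry the fast transient outward current, had effects of −0.73 and −0.34. Kcnj3 (−0.66) and Kcnj5 (−0.56) encode the acetylcholine-gated channel of the atria and also belong to the atrial markers. Of these 17 markers 11 were higher and 6 lower in vehicle TAC. The markers' summed means were 150757 in TAC and 89331 in SHAM hearts, of which Nppa alone held 49249 and 4661. The part of atrial tissue was not tested.

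Sodium, gap junction and pacemaker channel genes were divided, 6 higher and 9 lower. Gja1, which encodes the ventricular gap junction protein connexin 43, had 20335 normalized counts in TAC and 27881 in SHAM hearts (effect −0.46, unadjusted DESeq p 0.00696 in the authors' deposited table). Core cardiac transcription factors were lower in 12 of 16 by small amounts, with a median of −0.13; Mef2a (−0.39) and Irx4 (−0.38), a repressor typical of ventricle, had unadjusted p below 0.05. Tead1, whose family binds MCAT elements, had an effect of 0.11, Srf, which binds CArG boxes, 0.16, and Mef2c −0.12.

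Collagen genes and their processing enzymes were mostly higher, though none passed the adjusted threshold. All 22 collagen genes had a positive effect, with a median of 0.57, and 17 of 18 collagen processing enzymes with a median of 0.50. In the authors' deposited table, unadjusted DESeq p-values were below 0.05 for 3 collagens and 4 enzymes, all higher, beside 3.18% of all members. Col1a1, the main fibrillar collagen chain, had 8584 normalized counts in TAC and 3833 in SHAM hearts (effect 1.16, unadjusted DESeq p 0.206 in the authors' deposited table), and Col3a1 10250 in TAC and 6660 in SHAM hearts (effect 0.62). Effects ranged from 0.07 for Col5a3 to 3.68 for Col11a1. Col8a1, a short-chain network collagen, had 2832 in TAC and 726 in SHAM hearts (effect 1.96), Col12a1 an effect of 2.24, and Col8a2 2.73. Col11a1 had 153 in TAC and 11.0 in SHAM hearts with an unadjusted p of 0.0943 in the authors' deposited table. Effects above 2 thus stood beside p-values that did not pass in Col12a1, Col8a2 and Col11a1.

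Among the enzymes, Pcolce2, an enhancer of procollagen cleavage, had 882 normalized counts in TAC and 587 in SHAM hearts (effect 0.59, unadjusted DESeq p 0.00237 in the authors' deposited table). The lysyl oxidase family, which crosslinks collagen and elastin, was higher in all 5 members: Lox by 1.79, Loxl3 by 1.54, Loxl4 by 1.17, Loxl1 by 0.87 and Loxl2 by 0.78. Only Loxl3 and Loxl4 of these had an unadjusted p below 0.05. P3h2, a prolyl 3-hydroxylase, had an effect of 1.09.

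Matricellular proteins, elastic fibre proteins and proteoglycans were higher in 34 of 39, beside 48.2% of all members, with a median of 0.62. None passed the adjusted threshold by DESeq in the authors' deposited table. In that list 11 of the 39 had an unadjusted DESeq p below 0.05, all higher, beside 3.18% of all members. Cilp, a matrix protein that cardiac fibroblasts secrete, had 1902 normalized counts in TAC and 206 in SHAM hearts, an effect of 3.20. Ltbp2, which associates with fibrillin microfibrils, had 1584 in TAC and 155 in SHAM hearts (3.35). Thrombospondin 4 (Thbs4) had 1535 in TAC and 342 in SHAM hearts (2.16), and periostin (Postn), a marker of activated fibroblasts, 8649 in TAC and 1778 in SHAM hearts (2.28). Wisp2 had an effect of 1.98, Mfap4 1.81, Bgn 1.42, Aspn 0.83, Fbln2 0.84 and Ltbp4 0.46. The highest effect, 5.30, belonged to Spp1, which encodes osteopontin, with 959 in TAC and 23.3 in SHAM hearts and an unadjusted p of 0.0943 in the authors' deposited table.

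Matrix proteases and their inhibitors were higher in 19 of 23, with both directions at low p. Mmp15, a membrane-type protease, had 5621 normalized counts in TAC and 8314 in SHAM hearts (effect −0.56), and Adamts5, an aggrecanase, −0.42. Mmp23 had 579 in TAC and 299.5 in SHAM hearts (effect 0.95). Timp1, an inhibitor of metalloproteases, had 555 in TAC and 71.9 in SHAM hearts (effect 2.93, unadjusted DESeq p 0.0560 in the authors' deposited table). Adam8, a membrane protease of white blood cells, had 103 in TAC and 14.5 in SHAM hearts (effect 2.75, unadjusted p 0.235 in the authors' deposited table).

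In the TGF-beta superfamily and Wnt list 21 of 27 genes were higher, with a median of 0.46. Of the ligands, Tgfb2 had 1916 normalized counts in TAC and 753 in SHAM hearts (effect 1.35), Tgfb3 an effect of 0.70 and Tgfb1 0.40, while Inhba, the activin A subunit, had 340 in TAC and 143 in SHAM hearts (1.24). The receptor gene Tgfbr1 had an effect of 0.39, and the feedback inhibitor Smad7 786 in TAC and 554 in SHAM hearts (0.51, unadjusted DESeq p 0.00790 in the authors' deposited table). Of the secreted Wnt antagonists, Frzb had an effect of 1.05 and Sfrp2 2.00, and the ligand Wnt5a had −0.37. The lowest effect of this list, −3.95, belonged to the atrial ligand gene Bmp10. Of 23 activated fibroblast genes 18 were higher (median 0.38); beside Cilp and Postn, those with an unadjusted p below 0.05 were Tagln (0.99), Meox1 (1.45), a homeobox factor of activated fibroblasts, and Scx (0.80), a tendon and fibroblast factor. Integrins, laminins and basement membrane genes had a median of −0.01, with 12 of 25 higher; Itga9 (0.74) and Itga5 (0.55) stood on the higher side and Itgb6 (−0.70) on the lower.

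Of 19 general fibroblast markers 11 were higher, with a median of 0.09. Decorin (Dcn), an abundant fibroblast proteoglycan, had an effect of 0.09, Pi16, a marker of resting fibroblasts, 1.34 and Scara5 −0.73. Macrophage markers were higher in 22 of 23, with a median of 0.63 and summed means of 22114 in TAC and 15262 in SHAM hearts. None of them had an unadjusted p below 0.05 by DESeq in the authors' deposited table. C1qa had 1636 in TAC and 1064 in SHAM hearts, and Lgals3 284 in TAC and 77.9 in SHAM hearts. Mesothelial markers, of the tissue's outer lining, were higher in 11 of 12, with summed means of 3558 in TAC and 2701 in SHAM hearts. Smooth muscle markers were higher in 11 of 18 and endothelial markers in 16 of 20, with medians of 0.12 and 0.08. Red cell and platelet transcripts had summed means of 44397 in TAC and 23751 in SHAM hearts. These markers stood higher in the same group as the matrix genes, and their part in the matrix effects was not tested.

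**Figure D3:**
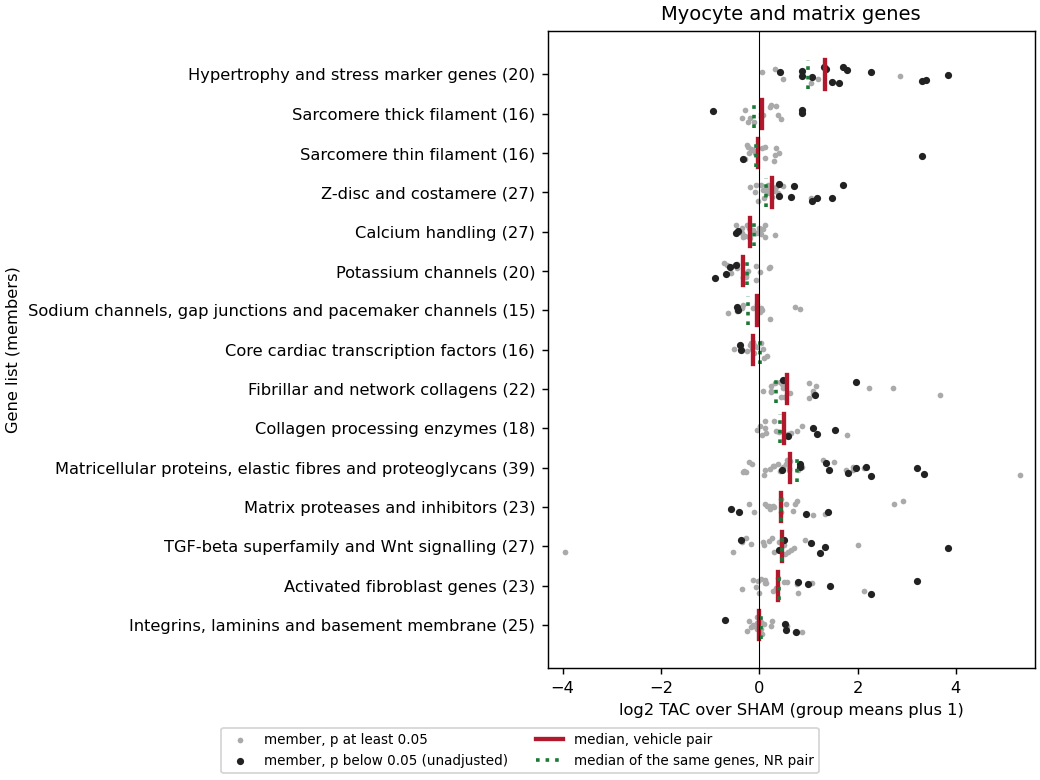
Effects of single genes in 15 lists of myocyte and matrix genes in the vehicle pair. Each dot is a gene, dark where the unadjusted p was below 0.05; the red bar is the list's median and the dotted green bar the median of the same genes in the NR pair. Stress markers (median 1.34) and 6 of the 7 matrix lists have medians to the right of 0, with integrins, laminins and basement membrane at −0.01, and potassium channels (−0.34) and calcium handling (−0.18) to the left.

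Of 39 genes of fatty acid uptake and oxidation 38 were lower, with a median of −0.32. By DESeq, 0 passed the adjusted threshold in the authors' deposited table and 13 had an unadjusted p below 0.05, all lower, beside 2.89% of all members. The beta-oxidation spiral inside the mitochondrion held most of them. Acadm, the medium-chain acyl-CoA dehydrogenase, had 50805 normalized counts in TAC and 70453 in SHAM hearts (effect −0.47). Both subunits of the trifunctional protein were lower to the same degree, Hadha with 60729 in TAC and 81988 in SHAM hearts (−0.43) and Hadhb with 60883 in TAC and 81722 in SHAM hearts (−0.42). Acaa2, the thiolase of the last step, had 18964 in TAC and 30587 in SHAM hearts (−0.69). Decr1, the dienoyl-CoA reductase for unsaturated chains and itself a short-chain dehydrogenase/reductase, had 11268 in TAC and 16345 in SHAM hearts (−0.54, unadjusted DESeq p 0.00285 in the authors' deposited table).

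Steps before and after the spiral differed in the same direction. The carnitine steps had effects of −0.41 for Cpt2 and −0.42 for the carnitine carrier gene Slc22a5, and the electron acceptor genes Etfa and Etfdh −0.39 and −0.37. The acyl-CoA thioesterase genes Acot1 and Acot2 had −1.13 and −0.55. Fatty acid entry genes differed less, with −0.23 for Cd36 and −0.06 for the binding protein gene Fabp3. Ppara, the nuclear receptor that drives this pathway, had −0.42 with an unadjusted DESeq p of 0.185 in the authors' deposited table, and the retinoid receptor gene Rxrg had −0.41. Adipocytes and hepatocytes also express genes of fatty acid metabolism. Summed adipocyte markers were 30640 in TAC and 33941 in SHAM hearts and summed hepatocyte markers 68336 in TAC and 2332 in SHAM hearts, and their part was not tested.

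Pyruvate oxidation and tricarboxylic acid cycle genes were lower in 32 of 35, with a median of −0.21. An unadjusted DESeq p below 0.05 was found for 5 of them, all lower, beside 2.89% of all members. Citrate synthase (Cs) had 56738 normalized counts in TAC and 72418 in SHAM hearts (effect −0.35), the succinate dehydrogenase subunit Sdha 39935 in TAC and 52628 in SHAM hearts (−0.40), and Pdp2, the phosphatase that activates pyruvate dehydrogenase, −0.53. Nuclear genes of the respiratory chain had smaller effects: 32 of 36 complex I genes were lower with a median of −0.12, and 35 of 39 genes of complexes III to V with a median of −0.13. In both lists together only Ndufs1 (−0.34) had an unadjusted p below 0.05 by DESeq in the authors' deposited table. Genes of branched-chain amino acid and ketone oxidation were lower in 20 of 24 (median −0.24), with the exception of Bdh1, the ketone body dehydrogenase, which had 7330 in TAC and 4002 in SHAM hearts (effect 0.87, unadjusted p 0.0238 in the authors' deposited table). Ppm1k, the phosphatase that activates branched-chain ketoacid dehydrogenase, had −0.55.

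Of the 13 transcripts of the mitochondrial genome 12 were lower, with a median of −0.42. In the authors' deposited table mt-Atp6 fell and 7 of the 13 had an unadjusted DESeq p below 0.05, all lower, beside 2.89% of all members. Together they made up 30.2% of all normalized counts in TAC and 36.1% in SHAM hearts. The cytochrome oxidase subunit gene mt-Co1 alone accounted for 11.4% in TAC and 13.8% in SHAM hearts, an effect of −0.42. The NADH dehydrogenase subunits mt-Nd1, mt-Nd2, mt-Nd4 and mt-Nd5 had effects between −0.47 and −0.40, whereas mt-Co3 had 52302 normalized counts in TAC and 39852 in SHAM hearts (0.39). Nuclear copies of mitochondrial sequence can share reads with these genes, so single values are uncertain. In the NR pair the median of the same 13 genes was −0.17.

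Glycolysis and glycogen genes were divided, 16 higher and 15 lower, with a median of 0.02. Pfkp, the platelet-type phosphofructokinase, had 2949 normalized counts in TAC and 1523 in SHAM hearts (effect 0.95), while the muscle type Pfkm had −0.25. The insulin-responsive glucose transporter gene Slc2a4 had −0.30 and the basal transporter gene Slc2a1 0.22. Lactate dehydrogenase B (Ldhb), the heart-type subunit, had 40641 in TAC and 51172 in SHAM hearts (−0.33). Isoforms of the same step thus lay on opposite sides of 0 in the phosphofructokinase and transporter genes.

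**Figure D4:**
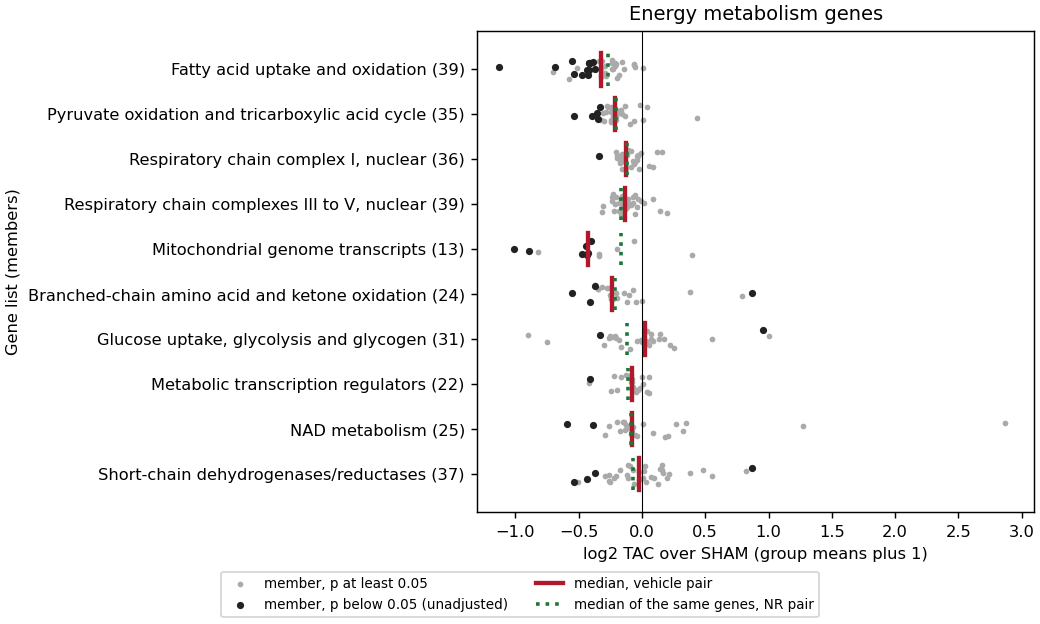
Effects of single genes in 10 lists of energy metabolism in the vehicle pair, drawn as in the plot of myocyte and matrix lists. Medians lie at −0.32 for fatty acid oxidation, −0.42 for mitochondrial genome transcripts and 0.02 for glycolysis; Nmrk2 stands apart at 2.87.

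NAD+ metabolism was examined because the series title concerns it. Of 25 genes 9 were higher and 16 lower, with a median of −0.08, and 0 passed by DESeq in the authors' deposited table. Both genes with an unadjusted DESeq p below 0.05 were lower, or 2 of 25 beside 2.89% of all members. Nmrk2, the muscle kinase that turns nicotinamide riboside into an NAD+ precursor, had 2295 normalized counts in TAC and 313 in SHAM hearts, an effect of 2.87. Its unadjusted DESeq p was 0.165 in the authors' deposited table, so the group means were far apart while the test did not separate them. In the NR pair Nmrk2 had 440 in TAC and 163 in SHAM hearts (effect 1.43), with an unadjusted p of 9.67e-08 in the authors' deposited table. Its paralog Nmrk1 had an effect of −0.11 in the vehicle pair. Nampt, the rate-limiting enzyme of NAD+ salvage from nicotinamide, had 8980 in TAC and 11742 in SHAM hearts (−0.39, unadjusted p 0.0357 in the authors' deposited table), and the mitochondrial NAD+ kinase gene Nadk2 2324 in TAC and 3500 in SHAM hearts (−0.59). Of NAD+ consumers, Parp1 had −0.29, Cd38 0.35, Sirt1 −0.20 and Sirt3 −0.14.

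Short-chain dehydrogenases/reductases, the enzyme family in the series title, were evenly divided: 18 of 37 were higher and 19 lower, with a median of −0.02. By DESeq, 0 passed in the authors' deposited table. Of the 37, 1 higher and 3 lower genes had an unadjusted DESeq p below 0.05, beside 3.18% and 2.89% of all members. These were Bdh1 (0.87), Decr1 (−0.54), Hsdl2 (−0.43) with 10263 normalized counts in TAC and 13854 in SHAM hearts, and Dhrs11 (−0.37). Dhrs7c, a family member of the muscle sarcoplasmic reticulum, had 3001 in TAC and 4251 in SHAM hearts (effect −0.50, unadjusted p 0.0716 in the authors' deposited table). Dhrs3, which reduces retinaldehyde, had 0.48 and Hsd11b1, which activates glucocorticoids, −0.03. Several of these enzymes are abundant in liver, and the part of the hepatocyte transcripts in their values was not tested.

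Immediate early genes, which respond to a stimulus within minutes to hours, were higher in 21 of 22, with a median of 0.30. Atf3 had 982 normalized counts in TAC and 347 in SHAM hearts (unadjusted DESeq p 0.00396 in the authors' deposited table). Nr4a3, Atf3 and Ier3 (0.43) were the 3 genes with an unadjusted DESeq p below 0.05, beside 3.18% of all members in that direction. Egr2 and Egr3 had effects of 1.44 and 1.29, and Myc 0.61. In the NR pair all 22 were higher with a median of 0.72, so this list had the larger median there. Heat shock proteins were higher in 18 of 27 (median 0.11). The small muscle chaperones Hspb7 with 148234 in TAC and 110394 in SHAM hearts and Hspb6 with 65639 in TAC and 49858 in SHAM hearts had effects of 0.43 and 0.40. Of 27 genes of the unfolded protein and integrated stress response 14 were higher and 13 lower, with a median of 0.01 and 0 adjusted calls by DESeq in the authors' deposited table. All 3 genes with an unadjusted DESeq p below 0.05 were higher, or 3 of 27 beside 3.18% of all members. These were Atf4 (0.45), Ddit3 (0.49) and Ppp1r15a (0.66), genes of the integrated stress response. Hspa5 and Hsp90b1, chaperones of the endoplasmic reticulum, had −0.26 and −0.21, and no lower gene had an unadjusted p below 0.05.

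Hormone and growth signals lay on both sides. Ace, the angiotensin-converting enzyme, had 3800 normalized counts in TAC and 2234 in SHAM hearts (effect 0.77), opposite in direction to the receptor gene Agtr1a (−0.60). Gpr22, an orphan receptor of heart muscle, had 1214 in TAC and 2498 in SHAM hearts (−1.04), and the adrenergic receptor genes Adra1b and Adrb1 −0.82 and −0.34. Fgf6 had 276 in TAC and 54.7 in SHAM hearts (2.31), whereas Fgf16, a fibroblast growth factor of the heart, had 566 in TAC and 964 in SHAM hearts (−0.77) and Fgf13 −0.46. Hbegf, a ligand of the EGF receptor, had 1117 in TAC and 517 in SHAM hearts (1.11) and Pdgfc 0.96. Among muscle ubiquitin ligase and kelch genes, 8 of 18 were higher; Klhl34 (1.15) stood beside Klhl40 on the higher side and Asb15 (−0.54) on the lower.

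Cell cycle genes had a median of 0.08, with 14 of 22 higher. Only Kif20a (0.83) had an unadjusted DESeq p below 0.05, or 1 of 22 beside 3.18% of all members. Of 19 clock genes 9 were higher; Bhlhe40 (0.62) had an unadjusted p below 0.05, and Hlf and Per1 had effects of −0.56 and 0.30. Interferon response genes had a median of 0.00, with 12 of 25 higher and 0 at an adjusted or unadjusted p below 0.05 by DESeq in the authors' deposited table. Only 2 lymphocyte markers reached the minimum, Ighm (−0.39) and Igkc (0.16). Of 9 Schwann and neuronal markers 7 were lower, with a median of −0.19. Of 5 skeletal muscle markers that reached the minimum 2 were higher, Mybpc2 (0.86) and Myl1 (0.51).

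Genes with large effects fell into separate kinds. An effect between 1 and 3 was seen in 260 genes, of which 104 (40%) had an unadjusted p below 0.05, and 242 were also higher in the NR pair. An effect of at least 3 was seen in 166 genes, of which 10 (6.02%) had an unadjusted p below 0.05. Of these 166, 114 had a SHAM mean under 5 normalized counts, 27 were hepatocyte markers, 96 were lower in the NR pair and 43 higher. In all, 426 genes had an effect of at least 1 (3.32%) and 36 an effect of at most −1 (0.281%). Of the 10 highest effects among genes whose mean reached 500 normalized counts, each was a gene known from liver. They were Serpina3k (10.42), Alb (9.90), Mup3 (9.62), Gc, Mup17, Fgb, Cyp2c29, Fgg, Apob and Apoa1, and Serpina3k alone had an unadjusted DESeq p below 0.05 in the authors' deposited table (0.0465). Serpina and Mup genes belong to families of near-identical copies, so their single values are uncertain. On the lower side at that level stood Bmp10 (−3.95), an atrial ligand, and Cfd (−2.34), an adipocyte protease, then Tmprss13 (−1.07), Cenpf (−1.04), Gpr22, Epha4 (−1.04), Lingo3 (−1.01), mt-Atp6, Ano10 and Ces1d (−0.99).

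The NR pair gives the same operation in libraries that the vehicle pair does not share. In it 50.9% of 12796 genes were higher and 49.1% lower in TAC. Over these genes, which have both values, 9093 (71.1%) had the same sign, and the effects had a Spearman rho of 0.59 and a Pearson r of −0.07 across genes, which are not independent replicates. Of the 408 genes that were higher in vehicle TAC with an unadjusted p below 0.05, 392 (96.1%) were higher in NR TAC too, beside 72.8% of all genes higher in vehicle TAC, and 185 also had an unadjusted p below 0.05 there. Of the 371 lower genes, 359 (96.8%) were lower in NR TAC, beside 69.4% of all lower genes, and 208 had an unadjusted p below 0.05. The median effects were 0.69 in the vehicle pair and 0.44 in the NR pair for the higher genes, and −0.51 and −0.36 for the lower genes. The genes were chosen by the vehicle pair's p-values, which favours larger values there, and the difference between the pairs was not tested. In the NR pair 1251 of the 12796 genes (9.78%) had an unadjusted p below 0.05 and 110 (0.860%) an adjusted one, with 9 libraries in that pair and 7 in the vehicle pair.

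Member by member, the stress markers kept their direction in all 20 cases, with an NR median of 0.997. Nppa had 27333 normalized counts in NR TAC and 2946 in NR SHAM hearts, Ankrd1 118280 in NR TAC and 48418 in NR SHAM hearts, and Gdf15 185 in NR TAC and 41.7 in NR SHAM hearts. Collagens had an NR median of 0.34 with 21 of 22 higher, and fatty acid genes one of −0.27 with 39 of 39 lower. Of the marker lists of other cells, several had medians of the same sign in both pairs. Macrophage markers had medians of 0.63 in the vehicle pair and 0.68 in the NR pair, red cell and platelet transcripts 0.80 and 0.71, mesothelial markers 0.37 and 0.65, smooth muscle markers 0.12 and 0.16, and atrial markers 0.12 and 0.92. Hepatocyte markers had medians of opposite sign, 8.25 in the vehicle pair and −1.69 in the NR pair, as did adipocyte markers, with −0.34 and 0.45. Summed hepatocyte means were higher in TAC in both pairs, in the NR pair with 3215 in TAC and 2127 in SHAM hearts. Bmp10 had 6511 in NR TAC and 4.21 in NR SHAM hearts (effect 10.29), against −3.95 in the vehicle pair. Myl7 had 10311 in NR TAC and 1273 in NR SHAM hearts.

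**Figure D5:**
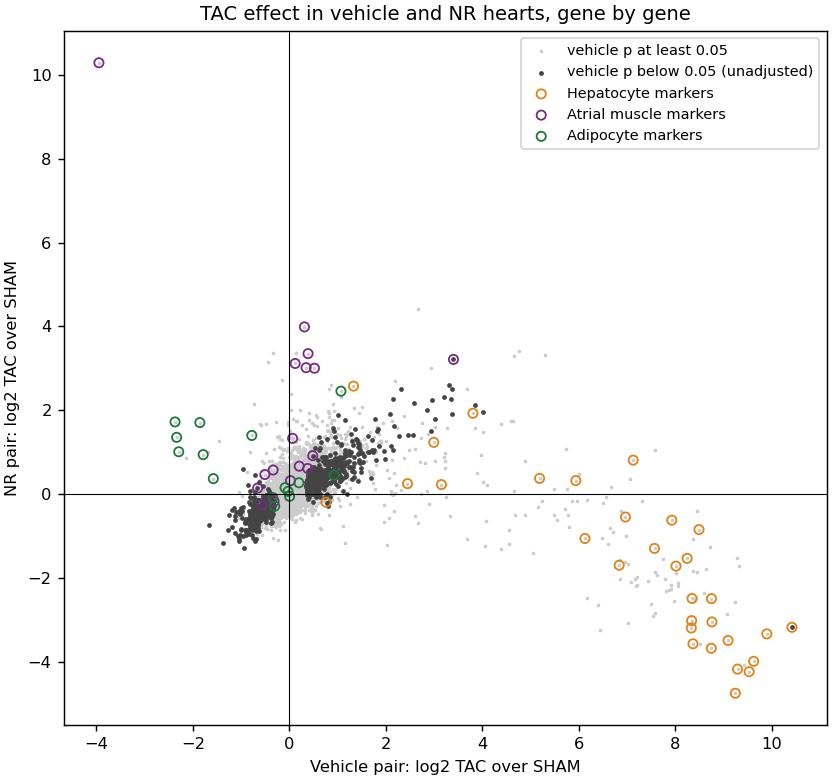
Effect of TAC in the vehicle pair (horizontal) and in the NR pair (vertical) for 12796 genes, with hepatocyte, atrial and adipocyte markers ringed. Genes with an unadjusted vehicle p below 0.05 (dark) lie mostly at the lower left and upper right, most hepatocyte markers at the lower right, and Bmp10 alone at the top left.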

How the data were processed

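Total heart RNA was sequenced by the BGISEQ-500 method (per the labels' extract protocol); TopHat, HTSeq and DESeq on GRCm38 are named in the submitters' processing notes without versions, and the strand setting is not given in the sources used here. The deposited signal columns are the authors' mean normalized counts per group, with size factors that belong to 1 pair only. The deposited fold ratio is the authors' quotient of these means after adding 1 to each. The deposited log2 column is its base-2 logarithm. The deposited p-value is the authors' DESeq test, and the adjusted p equals a Benjamini-Hochberg adjustment over all genes of the table, as recomputed. No value per library is used, so depth is unknown and no interval or SD is given.

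Effects were recomputed with a pseudocount of 1 and a minimum mean of 50 (Python 3.11.15, pandas 2.3.3); the scripts were tested on simulated data. The 46 gene lists, the members and the naming rule were chosen with earlier results of these data known. Named were genes with an adjusted p below 0.05; the 12 smallest p-values per direction; the 10 largest effects per direction at a mean of at least 500; up to 6 members per list by p; and a set of standard genes. Further list members were named after their values were seen. Lists were described by counts and medians, without a set test. Sequences are RefSeq promoter windows (GRCm38.p6); positions are from GENCODE for GRCm38. The 2 tables that compare NR with vehicle were not used, since they share libraries with this comparison. Alternatives changed the threshold, the minimum mean, the pseudocount and the centring, and left out predicted genes. A few genes that the naming rule selects are not reported here.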

Additional observations from a re-analysis of the deposited data

How the results depend on the processing

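The number of genes passing the authors' adjusted threshold was 10 over all genes and 3 at an adjusted p below 0.01 in the authors' deposited table. The number with an effect of at least 1 was 426, and became 1638 with no minimum mean, 831 with a minimum of 10, 276 with 100 and 97 with 500; the number with an effect of at most −1 was 36, and became 477 with no minimum, 105 with 10 and 10 with 500. A higher minimum leaves fewer genes by its construction. An adjusted p below 0.1 and an adjustment over the 12823 genes alone kept the number of passing genes within 1.5 times. Pseudocounts of 0.5 and 10, centring on the median effect (a shift of −0.01) and leaving out predicted genes kept both effect counts within 1.5 times. The passing genes, among them the predicted Gm4076 and Gm44769, were not recounted without predicted genes. List medians changed sign in 8 of 46 lists under some setting, none with a median above 0.164 in size, among them thin filament, short-chain dehydrogenase/reductase, cell cycle and interferon genes; those of stress markers, collagens, fatty acid oxidation and mitochondrial genome transcripts did not. No library could be left out, since the tables hold group means, and no paired analysis was possible because the labels number libraries without pairing them. The spread between libraries enters only through the authors' p-values.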

Other observations

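Outside the gene lists, 66 named genes had an effect of at least 1 with an unadjusted p below 0.05 by DESeq in the authors' deposited table. Of them 65 were also higher in the NR pair, 42 with an unadjusted p below 0.05 there. The shared direction was near that of all 408 higher genes with an unadjusted DESeq p below 0.05. Of those, 96.1% were higher in NR TAC, and 185 had an unadjusted p below 0.05 there. The following were chosen after their values were seen. Vgll2, a cofactor of TEAD factors in skeletal muscle, had 391 normalized counts in TAC and 23.1 in SHAM hearts (effect 4.02), and 129 in NR TAC and 32.6 in NR SHAM hearts. Nlrc3, a regulator of innate immune signalling, had 693 in TAC and 94.6 in SHAM hearts (effect 2.86). The vasoconstrictor peptide gene Edn3 had 1150 in TAC and 208 in SHAM hearts (effect 2.46). The scaffold gene Grip1 had 95.4 in TAC and 8.27 in SHAM hearts, the synaptic gene Rims2 211 in TAC and 26.7 in SHAM hearts, and the glutamate receptor gene Grin2c 124 in TAC and 39.8 in SHAM hearts.

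In the lower direction 13 such genes were counted, 13 of which were also lower in the NR pair, 11 with an unadjusted p below 0.05 there in the authors' deposited table. For all 371 lower genes with an unadjusted DESeq p below 0.05, the share lower in NR TAC was 96.8%, and 208 had an unadjusted p below 0.05 there. Epha4, an ephrin receptor, had 1936 in TAC and 3983 in SHAM hearts, and the chloride channel gene Clcn1 had 71.6 in TAC and 174 in SHAM hearts. The chemokine gene Ccl11 had 185 in TAC and 424 in SHAM hearts, and the mitochondrial folate enzyme gene Aldh1l2 245 in TAC and 547 in SHAM hearts.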
